A study of Homo sapiens with 5 samples.

Results

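In 786-O, an established cell line from a human renal carcinoma, 5118 chromatin regions at the ends of protein-coding genes carried a peak of lactylated lysine 12 of histone H4 (H4K12la) in both control libraries and in neither library from dexamethasone-treated cells. They were found by merging overlapping peaks of the 4 H4K12la libraries on chromosomes 1 to 22 into 180420 regions and keeping those that touched a window of 1000 bp either side of a gene's start or far end. The groups were H4K12la in cells given 10 µM dexamethasone for 48 h (2 libraries), the glucocorticoid receptor (GR) in cells given the same treatment (1 library), and H4K12la in untreated cells (2 libraries). All libraries are from the same parental line, with no genetic change stated and the same batch label, and the labels do not say whether replicates came from separate cultures. GR was profiled in treated cells alone, so it has no untreated counterpart here. The chromatin was profiled by CUT&Tag, in which an antibody brings a transposase to its target, and the DNA cut around it is sequenced.

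Histone lactylation is an acylation of lysine that draws on lactate, the end product of glycolysis, and lactylated histones are found at promoters and enhancers of active genes. GR is a nuclear receptor that moves to the nucleus when it binds a glucocorticoid such as dexamethasone and acts on transcription from sites on DNA. Clear cell renal carcinoma lines such as 786-O lack functional VHL, keep hypoxia-inducible factor active and are known for high glycolysis.

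The 5118 regions are 27.8% of the 18390 H4K12la regions at gene ends, against 17.8% control-only among all 180420 merged regions. Of the 12769 gene-end regions with a peak in both control lists, they are 40.1%; another 3150 had a peak in 1 dexamethasone list and 4501 in both. Among all regions in both control lists, 39.3% were control-only. Presence and absence in these lists chose the regions, so these shares are descriptions with no test, and 2 libraries against 2 could not give an exact permutation p below 0.333. The dexamethasone lists held 79157 and 66376 peaks on these chromosomes, against 123631 and 109801 in the control lists. The files give no read depth, so a region without a dexamethasone peak is one in which no peak was called, and a lower mark and a shallower library cannot be told apart. Peaks at gene ends made up 9.75% and 9.59% of the dexamethasone lists and 12.1% and 13.2% of the control lists. The lowest deposited summit heights were 11 and 12 in the dexamethasone lists, against 9 and 10 in the control lists.

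The markers of renal identity and of other cell types were checked at gene ends. Of 12 renal genes, 6 and 5 had an end peak in the dexamethasone lists, against 7 and 8 in the control lists, with summed heights of 142 and 113 against 569 and 627. PAX8, the renal lineage factor, had heights of 27 and 18 in dexamethasone and 140 and 119 in control libraries, whereas PAX2 and EMX2 had no end peak in any list. CA9, a carbonic anhydrase gene, had 29 and 26 in the dexamethasone lists and no end peak in the control lists, and CDH6, a kidney cadherin gene, had 0 and 27 in the dexamethasone lists and none in the control lists. Of these genes 4 had a control-only region, among them the epithelial keratin genes KRT8 and KRT18 and the receptor kinase gene MET. Of 13 genes of blood, endothelial, liver, islet, glial and heart cells, 6 and 2 had an end peak in the dexamethasone lists, against 4 and 7 in the control lists, and none had a control-only region. Their summed heights were 138 and 49 with dexamethasone and 68 and 141 in control libraries, and PTPRC, PECAM1, ALB, APOB and MYH6 were at 0 in all 4 lists. Over all 19122 protein-coding genes, 7743 and 6464 had an end peak in the dexamethasone lists, against 12282 and 12268 in the control lists. A control-only region was found at 28.3% of all genes, and both marker sets are too small to be set apart from these numbers.

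The promoters of 6 genes are shown because each lies whole inside one of the 10 highest control-only regions at gene starts, and because they differ in base composition and in the short motifs they hold. They are RefSeq sequences of GRCh38.p14, from 250 bases before to 50 bases after the gene's start, written 5′ to 3′ on the gene's own strand. Capitals mark matches, on either strand, to any of 11 motifs named further on. The positions are chr5:37371057-37371356, minus strand for NUP155; chr2:74507646-74507945, minus strand for PCGF1; chr17:39200033-39200332, plus strand for RPL19; chr11:61792661-61792960, plus strand for FEN1; chr14:34982742-34983041, plus strand for SRP54; and chr1:47189987-47190286, minus strand for PDZK1IP1.
NUP155: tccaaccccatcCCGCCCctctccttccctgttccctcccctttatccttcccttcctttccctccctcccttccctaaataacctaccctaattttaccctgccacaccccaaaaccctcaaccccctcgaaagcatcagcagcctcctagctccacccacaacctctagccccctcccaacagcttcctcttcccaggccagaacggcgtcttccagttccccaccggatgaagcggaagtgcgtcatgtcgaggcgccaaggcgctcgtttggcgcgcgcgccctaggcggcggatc
PCGF1: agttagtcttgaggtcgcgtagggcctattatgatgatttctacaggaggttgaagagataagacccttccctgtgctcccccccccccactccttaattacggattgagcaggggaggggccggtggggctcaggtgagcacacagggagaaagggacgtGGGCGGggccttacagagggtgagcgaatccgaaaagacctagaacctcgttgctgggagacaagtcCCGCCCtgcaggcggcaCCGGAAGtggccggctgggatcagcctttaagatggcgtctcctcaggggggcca
RPL19: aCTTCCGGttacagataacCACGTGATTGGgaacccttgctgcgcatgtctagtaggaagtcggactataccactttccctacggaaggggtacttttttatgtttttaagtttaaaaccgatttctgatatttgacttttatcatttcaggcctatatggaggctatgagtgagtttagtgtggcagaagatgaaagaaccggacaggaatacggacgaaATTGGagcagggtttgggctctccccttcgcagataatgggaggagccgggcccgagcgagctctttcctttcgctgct
FEN1: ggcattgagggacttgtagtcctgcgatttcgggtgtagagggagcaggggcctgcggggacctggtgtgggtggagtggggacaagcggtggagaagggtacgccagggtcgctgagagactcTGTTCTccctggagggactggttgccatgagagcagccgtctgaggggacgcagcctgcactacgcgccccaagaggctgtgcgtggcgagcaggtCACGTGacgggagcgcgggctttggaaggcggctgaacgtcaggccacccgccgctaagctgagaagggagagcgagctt
SRP54: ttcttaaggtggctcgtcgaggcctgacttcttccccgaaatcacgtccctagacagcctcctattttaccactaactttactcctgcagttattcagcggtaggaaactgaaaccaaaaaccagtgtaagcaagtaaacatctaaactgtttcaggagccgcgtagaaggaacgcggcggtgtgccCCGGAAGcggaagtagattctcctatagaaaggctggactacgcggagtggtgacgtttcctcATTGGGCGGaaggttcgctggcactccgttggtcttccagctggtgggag
PDZK1IP1: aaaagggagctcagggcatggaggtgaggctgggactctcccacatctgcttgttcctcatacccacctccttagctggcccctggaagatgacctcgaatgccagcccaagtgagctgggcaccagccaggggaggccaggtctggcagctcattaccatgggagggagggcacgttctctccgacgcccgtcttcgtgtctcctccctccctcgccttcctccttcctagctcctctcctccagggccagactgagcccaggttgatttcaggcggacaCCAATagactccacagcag
In NUP155 the match is 1 GC box, read on the opposite strand. PCGF1 holds 2 GC boxes and 1 ETS motif. RPL19 holds 1 ETS motif near its upstream end, 1 E-box and 2 CCAAT boxes, both read on the opposite strand, and the first of these directly follows the E-box. FEN1 holds 1 GR half-site and 1 E-box. SRP54 holds 1 ETS motif, 1 GC box and 1 CCAAT box, the last 2 sharing G bases. PDZK1IP1 holds 1 CCAAT box. The ratio of observed to expected CpG was 0.291 in PDZK1IP1, 0.537 in PCGF1, 0.725 in FEN1, 0.798 in NUP155, 0.861 in RPL19 and 0.889 in SRP54.

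Most control-only regions with a known gene orientation lay at starts. Strand was known for 15100 of the 19122 protein-coding genes (79%), which placed 4181 of the 5118 regions. Of these, 3446 touched a gene start (82.4%, 95% exact binomial interval 81.2 to 83.6%), including 274 that also touched the far end of a gene, and 735 touched far ends alone. Among gene-end regions in all 4 lists, 2422 of 3649 with strand touched a start (66.4%, 64.8 to 67.9%), and among those in both control lists and 1 dexamethasone list, 1906 of 2595 did (73.4%, 71.7 to 75.1%). Intervals here and below cover counting error only, and neighbouring regions are not independent. Read the other way, 44.3% of start regions in both control lists were control-only, against 27.7% of far-end regions.

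Within the start windows the highest control peak of each region clustered at the start itself. Its summit lay a median of 83 bp downstream of the start in the control-only regions, with quartiles of -200 and 549 bp, and 60.2% of summits were downstream. For start regions in all 4 lists the median was 69.5 bp and 61.1% were downstream. The control-only summits were spread more widely: 26.6% lay within 150 bp and 62.9% within 500 bp of the start, against 31.1% and 72.1% for regions in all 4 lists. Around far ends the summits were fewest at the end itself in both sets, and 29.1% of control-only summits and 16.6% of those in all 4 lists lay within 500 bp of it.

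**Figure D1:**
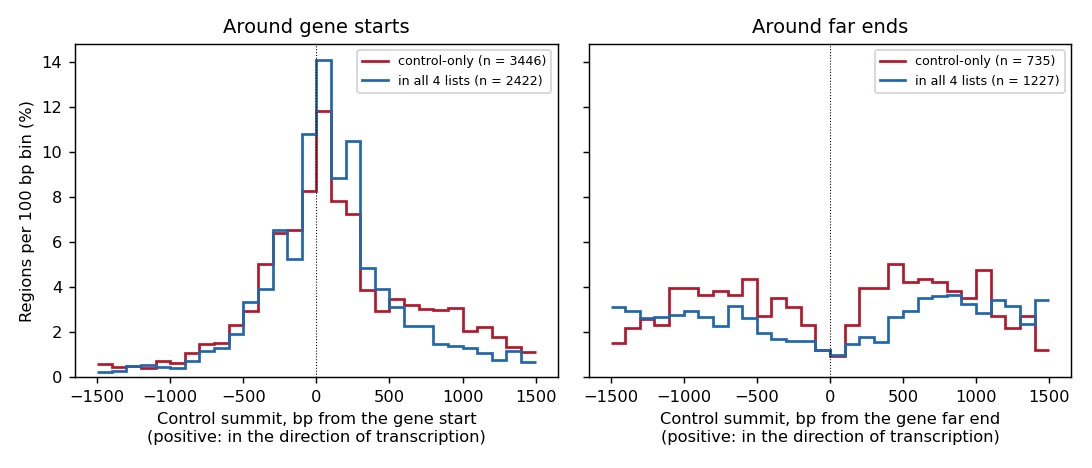
Distance of the highest control summit from the gene start (left) or far end (right), in bins of 100 bp, as a percentage of the control-only regions and of the regions in all 4 lists; positive distances run in the direction of transcription, and summits beyond 1500 bp are not drawn. At starts both curves peak just downstream of 0, and the control-only curve is lower there and higher beyond 500 bp downstream; at far ends both are lowest near 0.

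The regions ranged from barely called peaks to some of the highest in the control lists. Their summit heights had a lowest value of 9, a median of 37 and a highest of 254 in control replicate 1, and 10, 41 and 263 in control replicate 2. The median region stood at the 74.7th percentile of replicate 1 and the 76.4th of replicate 2. By mean control height, 517 regions (10.1%) were below 20, 2914 (56.9%) between 20 and 50, 1440 (28.1%) between 50 and 100, and 247 (4.83%) at 100 or more. Regions at starts had median heights of 40 and 45 and those at far ends 29 and 29 in control replicates 1 and 2. Heights of 100 or more were found in 202 of the 3446 start regions (5.86%, 5.1 to 6.7%) and 5 of the 735 far-end regions (0.68%, 0.221 to 1.58%).

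Gene starts in all 4 lists were higher in the control libraries than the control-only ones. Their median heights were 26 and 25 in dexamethasone and 72 and 82 in control libraries, and the median width of gene-end regions in all 4 lists was 1613 bp, against 991 bp (range 326 to 3975) for the control-only regions. The width of regions in all 4 lists also takes in dexamethasone peaks. Their highest control peaks had median lengths of 1237 and 1297 bp in control replicates 1 and 2. In control-only regions these lengths were 765 and 839.5 bp. Far-end regions present in all 4 lists had median heights of 33 and 33 with dexamethasone, against 37 and 36 in control libraries. Heights are not scaled to depth and are set side by side as deposited.

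The control-only share varied with control height. When regions at starts were ordered by the mean of their percentile ranks in the control lists, the control-only share lay between 50.7% and 67.7% in each band of 10 percentiles up to the 90th, and was 26.2% (24.7 to 27.8%) above it. At far ends the share was 41.7% (27.6 to 56.8%) in the lowest band and 13.7% (9.86 to 18.3%) in the top band. In each band the share at starts was above that at far ends.

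The 2 control libraries gave much the same heights for these regions. Across the 5118 regions, which share their positions and were chosen for a peak in both lists, Spearman's rho between replicate heights was 0.893, and the median ratio of replicate 1 to replicate 2 was 0.941. Replicate 2 was higher in 3020 regions (59%), and 82 regions (1.6%) differed by over 2 fold. The control summits lay a median of 113 bp apart, in peaks that overlap by the way regions were chosen, and 4885 regions (95.4%) held a single peak from each control list.

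**Figure D2:**
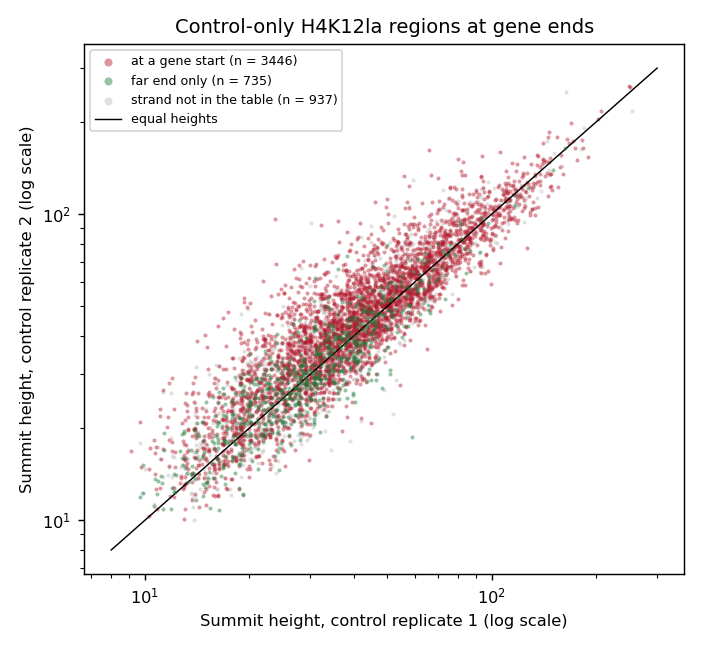
Summit height of each of the 5118 control-only regions in control replicate 1 (x axis) and replicate 2 (y axis), on log scales, coloured by position at a gene; points were moved by up to 0.4 units to show whole numbers that coincide, and the line marks equal heights. The points follow the line over heights from 9 to 263, and far-end regions lie mostly in its lower part.

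The highest control-only regions at gene starts came from genes of varied roles. NUP155, a scaffold protein of the nuclear pore, had no peak in either dexamethasone list and heights of 249 and 263 in control libraries at chr5:37370525-37371936. ISLR2, a leucine-rich repeat membrane protein studied in axons, had no dexamethasone peak and control heights of 250 and 260 at chr15:74099207-74100557. PCGF1, a Polycomb ring finger protein, followed at 207 and 217 at chr2:74506836-74508430. In all 3 the control replicates were close to each other, and the nearest dexamethasone peak lay 2051, 1790 and 6042 bp away.

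Next in order were MICALL1, an adaptor of endosomal recycling, at 202 and 205, and RPL19, a protein of the large ribosomal subunit, at 169 and 199. The region shared by the divergent genes FEN1, a flap endonuclease of DNA replication, and TMEM258, a subunit of the oligosaccharyltransferase, had heights of 182 and 175. SRP54, the GTPase of the signal recognition particle, had 172 and 173. PDZK1IP1, a membrane protein of proximal tubule cells, had 184 and 165. INO80D, of the INO80 chromatin remodeller, had 164 and 176, and the region at DZANK1 and POLR3F, a subunit of RNA polymerase III, had 167 and 170. All of these are control values, and none of the regions had a peak in a dexamethasone list. The summit at MICALL1 lay at -1157 bp from the start, and its promoter was outside the region.

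At far ends the highest region was that of C11orf68, at 163 and 164 in the control libraries, and its summit lay 1130 bp beyond the gene. UQCC1, an assembly factor of respiratory complex III, had heights of 150 and 139, with the summit at -1807 bp from its far end, inside the gene. SHF, an SH2 adaptor, had 127 and 122, and PDLIM1, a cytoskeletal PDZ and LIM domain protein, 118 and 114. The chemokine gene CCL20 had 117 and 107. TSPAN1, HDGF, ZNF774, EIF3I and NCBP3 completed the 10, between 81 and 97 in either library. The highest far-end region had lower values in both control libraries than each of the 10 highest start regions.

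The lowest regions sat at the floor of the lists. LRRK2, a kinase gene linked to Parkinson disease, had a height of 10 in both control libraries, and its nearest dexamethasone peak was 118551 bp away. The RNA helicase gene DHX29, the meiotic gene TEX12 and the pancreatic carboxypeptidase gene CPA1 each had 10 and 12. The lowest heights listed in the dexamethasone libraries were 11 and 12, on a scale not adjusted for depth.

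The window and the absence rule left close neighbours on either side. Just inside, at 1000 bp from a gene end, were regions of ZNF541 (19 and 13 in the control libraries), SLC51A (19 and 16) and PERP (19 and 22). Just outside, at 1001 bp, were control-only regions of CHRNB4 (12 and 12), TUBB6 (38 and 52) and CYCS (24 and 30). The gene end itself was inside 2640 of the regions (51.6%), 987 (19.3%) lay 500 to 1000 bp away, and 629 further control-only regions lay 1001 to 1500 bp away. The highest regions that a peak in 1 dexamethasone list kept out were those at PPP2R3C and PRORP, with a height of 32 in dexamethasone replicate 1 and 288 and 262 in control libraries, at ATP5PF and GABPA, with 33 against 229 and 291, and at DSN1, with 44 against 269 and 240.

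The nearest dexamethasone peak lay a median of 4515 bp from a control-only region (quartiles 2225 and 8939), 478 regions (9.34%) had one within 1000 bp and 2758 (53.9%) within 5000 bp. The median distance was 4740 bp at starts and 3592 bp at far ends. The rule left out regions that overlap a dexamethasone peak, and distances for other regions are not given here, so these values have no baseline.

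In all, 5413 of 19122 genes (28.3%) had a control-only region at an end, 3696 of them at the start, 1127 at the far end and 405 at both. Of the 11409 genes with an end peak in both control lists, 5305 (46.5%) had one. Among the 5413 genes, 3406 (62.9%) had no end peak in either dexamethasone list, 1057 (19.5%) had one in a single list and 950 (17.6%) in both, at another region of the same gene. Over all 19122 genes, 7743 had an end peak in dexamethasone replicate 1 and 6464 in replicate 2. Along the whole gene span, 72.3% and 68.9% of the 5413 genes held a peak in the dexamethasone lists, against 95.8% and 96.1% in the control lists, and 1076 (19.9%) held none in either dexamethasone list. The shares over all genes without a peak in either dexamethasone list, at ends or along the span, are not given here, so 62.9% and 19.9% have no baseline. Regions that touched the ends of 2 or more genes numbered 952 (18.6%), against 870 of 4501 (19.3%) in all 4 lists, and 308 of the 3446 start regions (8.94%) lay at divergent starts within 1000 bp, against 8.55% in all 4 lists.

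By chromosome, the control-only share of gene-end regions in both control lists ranged from 33.9% on chromosome 7 to 47.9% on chromosome 18, except on chromosome 13. There it was 59% (95 of 161 regions, 51 to 66.7%), and 15.5% were in all 4 lists, against 27.4 to 43.2% on the other chromosomes. The chromosome 13 regions also had the lowest median control height, 30.5 against 35 to 45 on the others, and the part of height in this share was not tested.

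GR peaks, which the choice of regions did not use, lay mainly at gene ends, at 67.3% of the 7879 on these chromosomes. Of the 5118 control-only regions, 1708 overlapped a GR peak (33.4%, 32.1 to 34.7%), against 3.84% of all merged regions and 26.7% of all gene-end regions. The share was 37.3% (35.9 to 38.8%) in gene-end regions in all 4 lists, 39.2% (37.5 to 40.9%) in those in both control lists and 1 dexamethasone list, and 3.2% in control-only regions away from gene ends. With 1 GR library there is no replicate behind any of these shares.

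Starts and far ends differed widely. At starts, 1445 of 3446 control-only regions overlapped a GR peak (41.9%, 40.3 to 43.6%), against 1428 of 2422 in all 4 lists (59%, 57 to 60.9%) and 41.8% of all start regions. At far ends, 24 of 735 did (3.27%, 2.1 to 4.82%), against 18 of 1227 in all 4 lists (1.47%, 0.872 to 2.31%). The GR peaks in control-only regions numbered 1747, or 22.2% of the GR list, had a median length of 442 bp against 436 bp in the whole list, and lay with their centre a median of 145.5 bp from the control summit. Start regions with a GR peak had median control heights of 47 and 55, against 35 and 39 without one.

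The GR share went with control height in both sets. Within 500 bp of the summit, so that wide regions have no advantage, a GR peak was found at 23.1% (139 of 601, 19.8 to 26.7%) of control-only start regions below the 50th percentile of rank, against 10.3% (14 of 136, 5.74 to 16.7%) of those in all 4 lists. Between the 50th and 75th percentile the shares were 34.7% and 29.7%, and between the 75th and 90th they were 43.2% and 42.7%, in both cases with overlapping intervals. Above the 90th percentile the share was 61.3% (509 of 831, 57.8 to 64.6%) in control-only regions and 70.4% (1066 of 1514, 68 to 72.7%) in regions in all 4 lists. That top band held 1514 of the 2422 start regions in all 4 lists and 831 of the 3446 control-only ones, so the shares over all starts compare sets of unlike height.

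**Figure D3:**
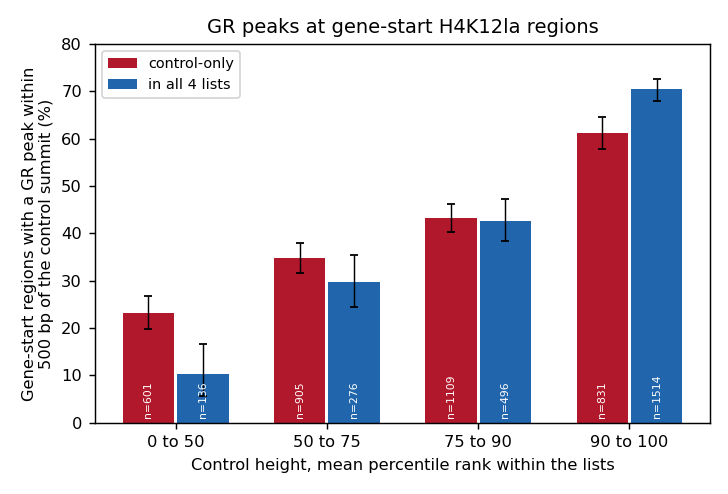
Percentage of gene-start regions with a GR peak within 500 bp of the control summit, by the region's mean percentile rank of height in the control lists, for control-only regions and regions in all 4 lists; error bars are 95% exact binomial intervals and n is the number of regions. The share climbs with height in both sets, to 61.3% in control-only regions and 70.4% in regions in all 4 lists in the top band.

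Of the 4 highest regions with a GR peak, 3 are named above. At NUP155 the GR peak ran over 596 bp (chr5:37370945-37371540) and held the whole promoter printed above. At PCGF1 it ran over 614 bp (chr2:74507355-74507968), also across the printed promoter. At MICALL1 it ran over 479 bp (chr22:37905048-37905526), upstream of the start. The fourth was DSCAML1, a cell adhesion gene of unknown strand here, with no dexamethasone peak, control heights of 254 and 217, and a GR peak of 836 bp at one edge of a region of 3975 bp, the widest of the control-only regions.

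Promoters with a control-only region at the start were rich in CpG. The comparison held the promoters of 13626 of the 15100 genes with strand. In it were 3179 of the 3418 genes with a control-only region and no dexamethasone peak in any start region. Their median ratio of observed to expected CpG was 0.865, against 0.815 for 2500 genes with a start region in all 4 lists, 0.436 for 4389 genes with no H4K12la peak at the start and 0.779 for all 13626 promoters. A ratio of at least 0.6 was reached by 87.1% (85.9 to 88.3%), 81.5% (79.9 to 83%), 41.6% (40.1 to 43.1%) and 68.1% (67.3 to 68.9%) of these groups in the same order. Median GC content was 65.3% in the control-only group, against 64% in all 4 lists and 56.3% with no peak. Promoters of control-only regions with a GR peak reached the CpG ratio of 0.6 in 90.7% of 1578 cases, and those without one in 83.6% of 1601.

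**Figure D4:**
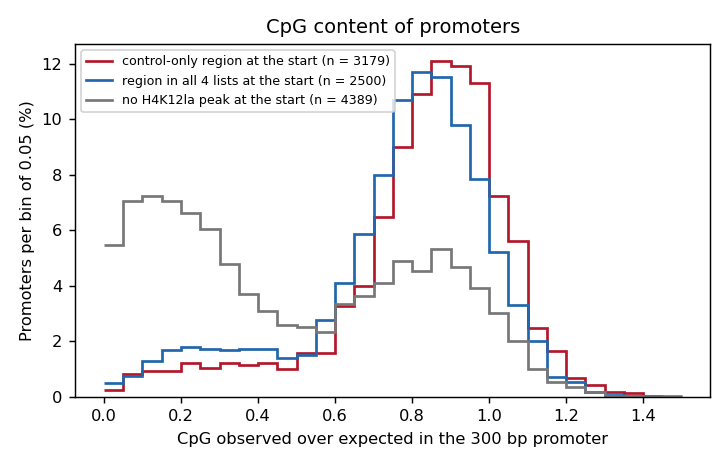
Distribution of the ratio of observed to expected CpG in 300 bp promoters, in bins of 0.05, for genes with a control-only region at the start, genes with a start region in all 4 lists and genes with no H4K12la peak at the start. The first 2 groups have a single main peak, with medians of 0.865 and 0.815, and promoters with no peak have a median of 0.436, with many at low ratios.

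The 11 motifs were searched as exact letters on both strands, and a match is a description of sequence. They were the GR element (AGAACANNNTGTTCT), the GR half-site (AGAACA), which the element contains, the GC box (GGGCGG), the ETS motif (CCGGAAG), the CCAAT box (CCAAT), the cyclic AMP response element (TGACGTCA), the AP-1 motif (TGANTCA), the E-box (CACGTG), the NRF1 motif (GCATGCGC), the YY1 motif (ATGGCGG) and the TATA box (TATAAA). The whole GR element was in 0 of the 13626 promoters. Its half-site was in 8.59% (7.64 to 9.62%) of the control-only promoters, against 9.24% in all 4 lists, 15.1% with no peak and 10.8% of all promoters. Control-only promoters with a GR peak held the half-site in 8.81% of cases and those without a GR peak in 8.37%.

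Most motifs stood closer between the promoter groups with H4K12la than between these and promoters with no peak. The GC box was in 70.3% of control-only promoters, against 68% in all 4 lists, 41.9% with no peak and 59.8% of all promoters. The ETS motif was in 23.4% (22 to 24.9%), against 20.7% (19.1 to 22.3%), 3.92% and 15%. The YY1 motif was in 11.1%, against 11.5%, 3.08% and 8.01%, and the NRF1 motif in 5.91%, against 6.44%, 1.59% and 4.35%. The E-box was in 10.9%, against 10.5%, 5.9% and 8.9%, and the CCAAT box in 36.7%, against 38.7%, 36% and 36.4%. The TATA box was in 5.98%, against 5.32%, 17.6% and 9.73%, and the AP-1 motif in 4.78%, against 4.64%, 7.68% and 5.61%.

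The intervals of control-only promoters and promoters in all 4 lists were apart for 1 motif. The cyclic AMP response element was in 136 of 3179 control-only promoters (4.28%, 3.6 to 5.04%), against 63 of 2500 in all 4 lists (2.52%, 1.94 to 3.21%), 1.64% with no peak and 2.77% of all promoters. In promoters in both control lists and 1 dexamethasone list it was in 3.75% (2.94 to 4.71%), and that interval overlaps the one of the control-only promoters. Within the control-only promoters, those with a GR peak held the CCAAT box in 42.7% (40.3 to 45.2%) and those without one in 30.9% (28.6 to 33.2%). The ETS motif was in 26.2% (24 to 28.4%) of those with a GR peak and 20.7% (18.8 to 22.8%) of those without, and the NRF1 motif in 7.48% (6.23 to 8.89%) and 4.37% (3.42 to 5.49%). Without genes that share a window with another gene, the ETS intervals with and without a GR peak overlapped (19.6 to 26% and 16 to 21.1%). So did those of NRF1 (5.42 to 9.43% and 2.92 to 5.59%), whereas those of the CCAAT box stayed apart (39.3 to 46.8% and 28.2 to 34.3%). No test was run on these shares, and promoters that overlap on opposite strands share bases.

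Genes were grouped into 20 lists by role, and each list is described by the share of its genes with a control-only region among those with an end peak in both control lists, to be read beside 46.5% for all protein-coding genes. Genes of transcription by RNA polymerase II, general factors and Mediator had such a region in 43 of 75 cases (57.3%, 45.4 to 68.7%), among them the Mediator subunit genes MED28 (159 and 143 in the control libraries), MED20 (89 and 93) and MED19 (79 and 92). Splicing and mRNA processing had 45 of 89 (50.6%), led by the Sm core protein gene SNRPD3 (134 and 135), the splicing factor gene SRSF11 (138 and 124) and PRPF38A (122 and 132), of the spliceosome. Chromatin regulators had 24 of 44 (54.5%), with PCGF1, the H3K4 methyltransferase gene KMT2D (105 and 107) and PBRM1 (87 and 84), a SWI/SNF subunit often mutated in renal carcinoma. Several regions of these and the following lists lie where windows of neighbours meet, such as SNRPD3 with GUCD1, PSMC5 with FTSJ3, and KMT2D, at its far end, with PRKAG1, and a peak there cannot be given to 1 gene of the pair. Some genes named in these and the following lists had a dexamethasone peak elsewhere at their ends. PLK3 and PSMC2 had one in both dexamethasone lists. SRSF11, MED19, PBRM1, MRPL15, NDUFA13, EEF1B2, PSMC5, SLC35B1 and CDK11B had one in 1 of them.

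Cytosolic ribosomal proteins had a control-only region in 40 of 75 cases (53.3%, 41.4 to 64.9%), with a median of mean control heights of 69.5, against 42.5 over all 5413 genes. RPS29 had control heights of 176 and 150, beside RPL19. Mitochondrial ribosomal proteins had 31 of 71 (43.7%), with a median height of 63 and MRPL48 (144 and 137), MRPL15 (101 and 122) and MRPS21 (93 and 89) highest. Respiratory complex I and ATP synthase, a list that also takes in complex III genes, had 40 of 85 (47.1%), led by the complex I genes NDUFA13 (118 and 138) and NDUFS1 (115 and 116) and the complex III gene UQCRQ (116 and 116). Translation factors had 30 of 63 (47.6%), led by EEF1B2, whose region is the one it shares with NDUFS1, and by EIF4E2 (88 and 106), a cap-binding protein; EEF1AKMT3 (94 and 122), a methyltransferase of elongation factor 1A, entered that list through its symbol.

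The lists of protein turnover and of DNA replication lay at or below the share for all genes. Proteasome subunits had 13 of 34 (38.2%, 22.2 to 56.4%), led by the ATPase genes PSMC5 (141 and 171) and PSMC2 (115 and 123). Cullin and F-box ligases had 35 of 82 (42.7%), led by SKP2 (112 and 99), FBXW2 (82 and 121) and FBXO36 (95 and 98). Genes of DNA replication and repair had 19 of 45 (42.2%), with FEN1 and the checkpoint kinase gene ATR (110 and 139, at its far end) highest. RAB GTPases and vesicle fusion had 44 of 118 (37.3%, 28.6 to 46.7%), led by RAB30 (124 and 125).

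Kinases of the MAPK and cell-cycle families had 46 of 81 (56.8%, 45.3 to 67.8%), led by PLK3 (115 and 125), MAP3K12 (83 and 148) and CDK11B (83 and 109). Solute carriers had 96 of 197 (48.7%), led by the zinc transporter genes SLC39A9 (143 and 149) and SLC30A6 (118 and 112) and the nucleotide sugar transporter family gene SLC35B1 (110 and 124). Zinc finger genes named ZNF had 145 of 352 (41.2%, 36 to 46.5%) and a low median height of 32, with ZNF655 (140 and 146), ZNF207 (118 and 146) and ZNF787 (112 and 113) highest. Homeobox and other developmental factors had 33 of 79 (41.8%), led by a region at HOXA10 and HOXA11 (132 and 123) and another at HOXA9 (89 and 102). Among 391 olfactory receptor genes, expressed mainly in neurons of the nose, 10 had an end peak in both control lists and 5 had a control-only region, with a median height of 20.5, and of 113 keratin-associated and late envelope protein genes 2 had one.

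Glycolysis and lactate handling had the highest share of the 20 lists. Of 24 genes on these chromosomes, 9 and 11 had an end peak in the dexamethasone lists, against 23 and 21 in the control lists. Over all 19122 protein-coding genes these numbers were 7743 and 6464, against 12282 and 12268. Of the 20 glycolysis and lactate genes with an end peak in both control lists, 15 had a control-only region (75%, 50.9 to 91.3%). The list is small, its interval comes close to 46.5%, and it was chosen with results of these data known. The lactate transporter gene SLC16A1 was highest, with control heights of 108 and 116, followed by the regulatory kinase gene PFKFB4 (114 and 96) and the aldolase gene ALDOA (90 and 110).

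The other control-only regions of that list lay at genes of several steps of the pathway. At its entry were the glucose transporter gene SLC2A3 (25 and 19), the hexokinase genes HK1 (24 and 17) and HK2 (22 and 31), the phosphofructokinase genes PFKL (63 and 51) and PFKM (26 and 24) and the regulatory kinase gene PFKFB3 (33 and 41). Lower in it were GAPDH (71 and 75), PGAM1 (28 and 41), the enolase genes ENO1 (36 and 51) and ENO2 (43 and 37) and PKM (46 and 45), the pyruvate kinase gene, and PDK1, the kinase that holds back pyruvate dehydrogenase, had 32 and 48. The regions of PGAM1 and PFKM lay at far ends. Of the 15 genes, 10 had no end peak in either dexamethasone list, against 62.9% of all 5413 genes with a control-only region. PFKM, GAPDH and ALDOA had one in both, elsewhere at their ends: the highest end peak of PFKM was 17 and 27 in dexamethasone and 163 and 182 in control libraries. The lactate dehydrogenase genes of the list lay outside the set, with LDHA at 24 and 20 in dexamethasone and 52 and 63 in control libraries and LDHB at 26 and 35 against 83 and 83. LDHC, the testis form, is not in the list and had a control-only region with heights of 17 and 23. The exporter gene SLC16A3 had 35 and 32 against 154 and 134. Also outside the set were the glucose transporter gene SLC2A1 (31 and 22 against 49 and 51) and GPI (17 and 13 against 24 and 28). PFKP, TPI1, ALDOC and BSG had no control-only region either, and each lacked an end peak in 1 control list.

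Genes known to be induced by glucocorticoids in other cells had a control-only region in 17 of the 29 cases peaked at an end in both control lists (58.6%, 38.9 to 76.5%), and 18 of 43 in all. Their regions at ANGPTL4, a regulator of lipoprotein lipase, had control heights of 101 and 91, at PTGER4, a prostaglandin receptor, 96 and 87, and at PHLDA1 95 and 82, and each of these 3 overlapped a GR peak and had no dexamethasone peak at either end. BIRC3 (85 and 79) and CEBPD (70 and 73) were among those that followed. The transcription factor gene KLF9 had 54 and 55, the NF-kB inhibitor NFKBIA 43 and 32, FKBP5, a co-chaperone of GR, 28 and 36, and the metallothionein gene MT1X 23 and 27, where the median over the list was 40. The regions of KLF9 and MT1X overlapped a GR peak, and those of NFKBIA and FKBP5 did not. Of the 18 genes, 13 had no end peak in either dexamethasone list, 3 had one in 1 list and 2 in both. The share without one over all 5413 genes was 62.9%. Elsewhere at their ends, KLF9 had peaks of 22 and 20 in the dexamethasone lists, FKBP5 had 18 in replicate 1 and MT1X 14 in replicate 2.

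Other glucocorticoid targets were not in the set. SGK1, a kinase of sodium transport, kept an end peak in every list, with 42 and 40 in dexamethasone and 38 and 42 in control libraries, the groups overlapping. ERRFI1 had 36 and 41 against 215 and 262, and DDIT4 17 and 21 against 125 and 112, the dexamethasone values below the control values. PER1, ZBTB16 and ZFP36 had no end peak in any list.

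The list of enzymes that add, remove or supply lactyl and related acyl groups also takes in SMARCA4 and BRPF1, which are not such enzymes. Its genes had a control-only region in 10 of 20 cases (50%, 27.2 to 72.8%). SUCLG1, a subunit of succinyl-CoA synthetase, had control heights of 71 and 76, the remodeller ATPase gene SMARCA4 51 and 65, and the mitochondrial deacylase gene SIRT3 48 and 66, each with no dexamethasone peak at either end and a GR peak in the region. The acetyltransferase genes EP300 (27 and 50), KAT8 (38 and 40) and KAT2B (15 and 22), the deacetylase genes HDAC3 (35 and 41) and SIRT1 (43 and 41), ACLY (40 and 32), which makes cytosolic acetyl-CoA, and the alanyl-tRNA synthetase gene AARS1 (43 and 43) had the rest, those of SIRT1 and AARS1 at far ends. The regions of EP300, KAT2B and SIRT1 had no GR peak, and those of KAT8, HDAC3, ACLY and AARS1 had one. At EP300 and AARS1 a higher end peak lay elsewhere: the highest of AARS1 was 30 and 26 in dexamethasone and 169 and 173 in control libraries. Of the 10 genes with a control-only region, 6 had no end peak in either dexamethasone list, 3 had one in 1 list and 1 in both. HDAC2 (30 and 31 against 139 and 155) and SUCLG2 (28 and 34 against 162 and 133) had an end peak in all 4 lists.

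**Figure D5:**
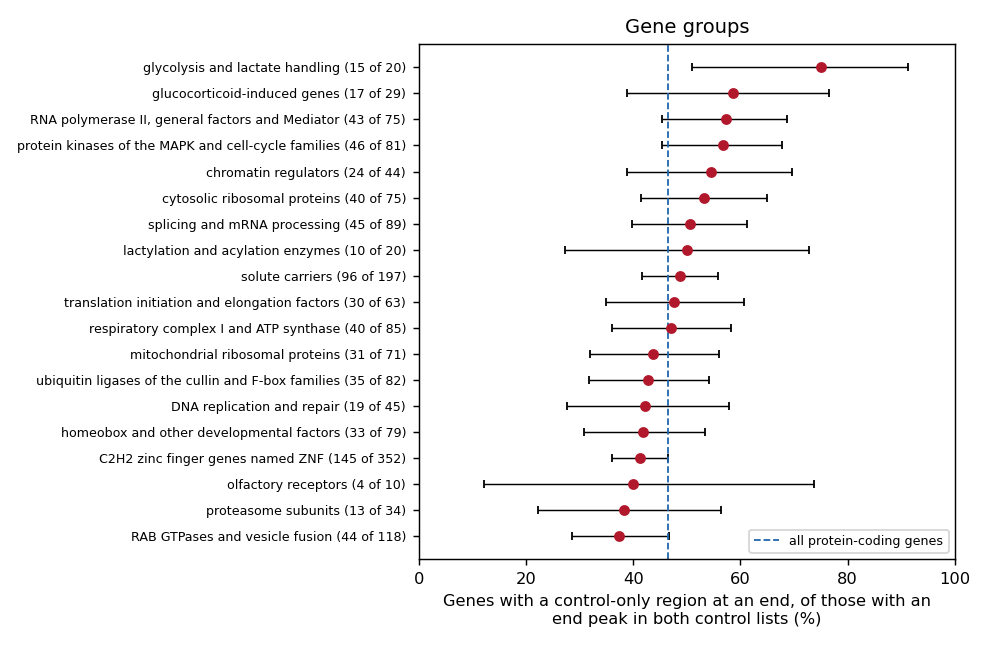
Percentage of genes with a control-only region at an end, among the genes of each list with an end peak in both control lists (numbers in brackets); lists with under 10 such genes are not drawn, and error bars are 95% exact binomial intervals. The dashed line at 46.5% is the share over all protein-coding genes, and glycolysis and lactate handling, at 75%, is the list farthest above it.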

How the data were processed

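The labels gave the groups. Per the submitters' processing notes, the tools were fastp 0.19.6, Bowtie2 and deepTools and the build was GRCh38 (hg38). For the peak caller, its settings and any control library, the answer is not given in the sources used here. Each library has its own deposited list, with 1-based positions. For H4K12la the authors also give a signal, a whole-number height at each summit, used here to describe, rank and filter peaks. The GR list has no heights, and its 8065 rows are numbered up to 15183 with gaps.

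Peaks sharing 1 bp were merged, and gene spans and promoters came from RefSeq tables of GRCh38.p14. Strand was taken from the promoter table, whose start lay within 1000 bp of the gene-span start for 90.2% of the genes. A gene shares a window with another in 36.8% of cases. Height rank is the mean of a region's percentiles within the control lists. Shares have 95% exact binomial (Clopper-Pearson) intervals, and no test was run. The regions, lists and height bands were chosen with earlier results of these data known. Named genes are the 10 highest at starts and at far ends, the 4 lowest, the 4 highest with a GR peak, those nearest the limits, and the 3 highest of each list; other genes of the glycolysis, glucocorticoid and acylation lists were named after their values were seen. Some genes that the rule selects are not reported here. Alternatives changed the window, merging, peak thresholds, list lengths and libraries. Simulated peak lists served to test the code. Scripts ran on Python 3.11.15 with matplotlib 3.10.9, scipy 1.17.1, pandas 2.3.3 and numpy 2.4.6.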

Additional observations from a re-analysis of the deposited data

How the results depend on the processing

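The number of control-only regions at gene ends lay between 3446 and 7220 over 14 alternatives and the number of genes between 3696 and 7355, each within 1.5 times the reported 5118 and 5413. The GR share of 33.4% moved with the window, to 39.3% at 500 bp, 28.4% at 2000 bp and 41.9% at starts alone. It was 34.8% when a peak of each control list had to lie in the window, 34.8% with no dexamethasone peak within 1000 bp, 39% with 66376 peaks per list, 39.1% and 36.9% without heights below 20 in every list or in the control lists, and 31.3% when the region had to cover at least 50% of the GR peak. Leaving out 1 library at a time gave 24.7 to 35.6%, with 6172 to 7220 regions and 6364 to 7355 genes. The cause of these moves was not tested. The start share of 82.4% became 85.1% at 500 bp and 78% at 2000 bp. Without genes that share a window, the ETS share was 20.3% in place of 23.4% and the YY1 share 9.77% in place of 11.1%, while the median CpG ratio was 0.864. Depth is unknown, so heights and list lengths are not scaled to it, and the single GR library has no replicate. No paired analysis was possible because the results come from no test.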

Other observations

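Hairpins of microRNAs, small RNAs that repress mRNAs, were inside 28 of the 5118 control-only regions (0.547%, 95% exact binomial interval 0.364 to 0.79%), against 34 of the 4501 gene-end regions in all 4 lists (0.755%, 0.524 to 1.05%). The highest were MIR611, in the region of FEN1 and TMEM258 (182 and 175 in the control libraries), MIR632 at C17orf75 and ZNF207 (118 and 146) and MIR12119 at BUD31 and PDAP1 (111 and 117), all with a GR peak. MIR196A2, a microRNA of the HOXC cluster, lay in the region of HOXC10 (60 and 68), without a GR peak. The hairpins overlap host promoters or gene ends, so these peaks cannot be assigned to the microRNA or to the gene.

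DUSP1, a phosphatase gene induced by glucocorticoids in many cells, had no end peak in the dexamethasone lists and end peaks of 84 and 77 in the control lists, yet it is not in the set, because its wide control peaks overlap a peak of dexamethasone replicate 1 that lies beyond the window. Regions of opposite pattern, with a peak in both dexamethasone lists and neither control list, numbered 220 at gene ends, and 1 of them overlapped a GR peak (0.455%, 0.0115 to 2.51%).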
